A study of Homo sapiens with 8 samples.

Results

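In ChIP-seq of the transcription factor GATA2 in VCaP cells, 13718 of 36122 merged regions had a peak in both replicate 2 lists, untreated and JQ1-treated, and none in either replicate 1 list. That is 38.0% of all regions (95% Wilson interval 37.5 to 38.5%). Regions were formed by chaining peaks on chromosomes 1 to 22, X and Y that overlapped by at least 1 bp over the 4 lists, and the regions described here were chosen by presence or absence of a called peak alone. They made up 64.8% of the 21173 regions found in both replicate 2 lists (64.1 to 65.4%). Of the remaining 7455 regions of that kind, 3236 had a peak in all 4 lists, 2890 had one in untreated replicate 1 but not in JQ1 replicate 1, and 1329 had the reverse. Another 4791 regions were in the list of untreated replicate 2 only and 9348 in that of JQ1 replicate 2 only. Because presence and absence of peaks defined the set, its size and its absence from replicate 1 are descriptions and carry no test.

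VCaP is an established human prostate cancer line that the labels call castrate-resistant. All 4 precipitates came from cells held for 72 h in medium depleted of steroids. The labels give 2 groups of 2 replicates: cells titled as non-treated, for which the growth protocol names a DMSO control, and cells given 1 µM JQ1 for 24 h before harvest. Of the 8 samples, 4 are GATA2 precipitates with a peak list each, and the 4 inputs were not analysed here. Nothing in the labels says whether the replicates came from separate cultures. The study's question is how JQ1 affects where GATA2 sits on chromatin, and for the regions described here each treatment has 1 list with a peak, so no difference between treatments could be tested. Peak lists hold no expression values, so markers of the cell type were not checked.

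GATA2 is a zinc finger transcription factor that binds DNA at GATA motifs. In prostate cells it is known for acting with FOXA1 at enhancers of androgen-responsive genes. JQ1 is a small molecule that occupies the bromodomains of the BET family, proteins that bind acetylated histones at active enhancers and promoters.

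The sequence under these peaks can be shown for regions whose summit fell in a promoter window of RefSeq (GRCh38.p14, from 250 bases before to 50 bases after a gene's start). There were 64 such regions (0.467% of the 13718), 31 of them at protein-coding genes. The 8 with the best ranks among those whose promoter sequence was used are printed first, followed by 2 chosen after their values were seen because of their genes: TRPM8, a cold-sensing ion channel made by prostate epithelium, and UGT2B15, an enzyme that inactivates androgens by glucuronidation. Each sequence is on the gene's strand, 5′ to 3′, and reaches up to 60 bases to either side of the summit in untreated replicate 2 unless the promoter window or, for protein-coding genes, the start ended first. Capitals mark GATA or its reverse complement TATC. At APBA2, ETFB and TRPM8 the window shown lies inside the gene's span, at a start other than the outermost one.

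APBA2, chr15:29070449-29070569, plus strand: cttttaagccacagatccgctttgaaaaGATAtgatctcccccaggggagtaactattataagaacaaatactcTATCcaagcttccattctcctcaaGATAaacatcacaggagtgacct

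LINC01031, chr1:193304691-193304794, plus strand: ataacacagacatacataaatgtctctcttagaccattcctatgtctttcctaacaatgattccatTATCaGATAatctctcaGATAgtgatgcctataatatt

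AGAP1-IT1, chr2:235505501-235505566, plus strand: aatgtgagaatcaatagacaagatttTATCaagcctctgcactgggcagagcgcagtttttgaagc

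ETFB, chr19:51354982-51355092, minus strand: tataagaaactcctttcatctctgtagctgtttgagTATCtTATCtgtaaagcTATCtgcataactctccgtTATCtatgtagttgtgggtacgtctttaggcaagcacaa

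LOC105376426, chr10:13717887-13718000, plus strand: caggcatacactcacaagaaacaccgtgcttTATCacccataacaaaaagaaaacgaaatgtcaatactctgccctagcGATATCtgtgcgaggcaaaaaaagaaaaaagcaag

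LOC105378493, chr10:114027146-114027266, plus strand: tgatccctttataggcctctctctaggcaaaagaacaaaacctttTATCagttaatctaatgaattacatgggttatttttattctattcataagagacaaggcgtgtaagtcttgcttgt

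DMXL1-DT, chr5:119037664-119037784, minus strand: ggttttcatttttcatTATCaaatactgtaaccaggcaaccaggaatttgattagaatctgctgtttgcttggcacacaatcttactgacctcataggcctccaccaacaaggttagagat

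LOC107984362, chr11:39490051-39490171, minus strand: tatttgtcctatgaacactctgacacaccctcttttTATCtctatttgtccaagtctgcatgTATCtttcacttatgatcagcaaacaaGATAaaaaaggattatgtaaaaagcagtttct

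TRPM8, chr2:233953503-233953568, plus strand: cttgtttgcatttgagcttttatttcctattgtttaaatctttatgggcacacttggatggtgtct

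UGT2B15, chr4:68670653-68670773, minus strand: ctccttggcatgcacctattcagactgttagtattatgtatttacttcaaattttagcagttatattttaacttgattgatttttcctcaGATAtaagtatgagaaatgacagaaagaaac

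All 8 sequences chosen by rank held at least 1 GATA motif. In ETFB, which encodes a subunit of the mitochondrial electron transfer flavoprotein, 4 motifs stood on the reverse strand and the nearest was centred 4.5 bp from the summit. In LOC107984362 the nearest motif was centred 3.5 bp from the summit. The TRPM8 window held no GATA, which says only that these letters are not in the 66 bases shown. The UGT2B15 window held 1, centred 31.5 bp from the summit.

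Presence of GATA on either strand was then counted over promoters, a measure the choice of regions did not use. Of 66 promoter windows that held a summit of these regions, 61 contained GATA (92.4%, 83.5 to 96.7%), against 49.8% of all 34943 promoter windows. The longer forms AGATAA or TGATAA, on either strand and each containing GATA, were in 38 of the 66 (57.6%, 45.6 to 68.8%) and in 16.3% of all promoters. Windows that held a summit of a region present in all 4 lists gave 28 of 28 for GATA and 18 of 28 for the longer forms (64.3%, 45.8 to 79.3%). The intervals of the longer forms in these promoter sets overlap each other, and both lie above the share over all promoters. Over 101 bases centred on the summit, where the promoter window held them all, GATA occurred in 38 of 47 of these regions (80.9%, 67.5 to 89.6%) and in 15 of 17 regions of all 4 lists. The middle 101 bases of all promoters held it in 22.9%. These counts cover only the few regions at promoters, and overlapping promoters can share sequence. The promoter sets were not matched for base composition or for the share of protein-coding genes. The part of this in the difference from all promoters was not tested.

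**Figure D1:**
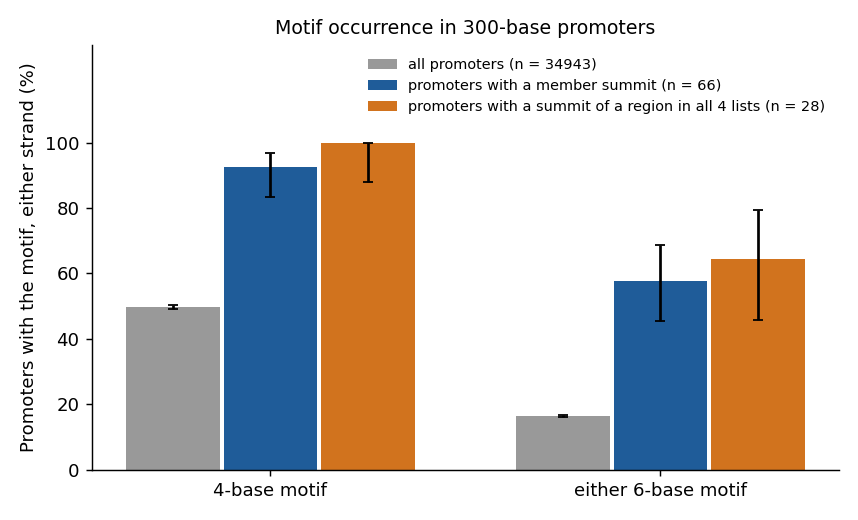
Share of promoter windows that hold a GATA motif or its longer forms on either strand, in percent, for promoters with a summit of the replicate 2 regions, with a summit of a region in all 4 lists, and for all promoters. Bars start at 0 and error bars are 95% Wilson intervals. The replicate 2 regions stand at 92.4% for GATA and all promoters at 49.8%.

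The label of these regions as the weaker ones was checked against the deposited values. Peaks are given by the −log10 of the authors' q-value, by the authors' fold enrichment over local background, and by the number of fragments stacked at the summit, which could be recovered from the deposited p-value and fold. Where 2 values are given for a region, the first is from untreated replicate 2 and the second from JQ1 replicate 2. The median −log10 q-value of the regions was 12.2 and 13.3, against 68.6 and 62.4 for regions present in all 4 lists. Their median summit held 34 and 26 fragments, for which exact 95% Poisson intervals are 23.5 to 47.5 and 17.0 to 38.1, covering counting error only. For regions in all 4 lists the medians were 106 and 69 fragments. Fragments are given as counted in each library, and over the 21173 regions the median ratio of JQ1 to untreated was 0.697. Median fold enrichment was 7.16 and 6.89, against 18.6 and 16.9.

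The label therefore holds for the median against regions in all 4 lists, and the ranges overlapped. The rule partly sets this comparison, since regions in all 4 lists also had to pass in the shorter replicate 1 lists. From the 5th to the 95th percentile the −log10 q-value of these regions ran from 3.76 to 43.8 in untreated replicate 2 and from 3.83 to 46.8 in JQ1 replicate 2, with maxima of 159 and 183. In untreated replicate 2, 130 of the regions (0.948%) were at or above the median of the regions in all 4 lists, and in JQ1 replicate 2 this was 281 (2.05%). Nor were they the weakest peaks of their own lists. Over all regions with a peak in the list, the median −log10 q-value was 13.8 in untreated replicate 2 and 12.2 in JQ1 replicate 2. The set, at 12.2 and 13.3, was thus lower in the first and higher in the second. The median rank of the set was 53.7% of the way down the list of untreated replicate 2 and 46.0% down that of JQ1 replicate 2. The lowest-ranked 20% of the list took in 17.5% and 12.9% of them, and the highest-ranked 20% took in 8.0% and 13.5%.

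**Figure D2:**
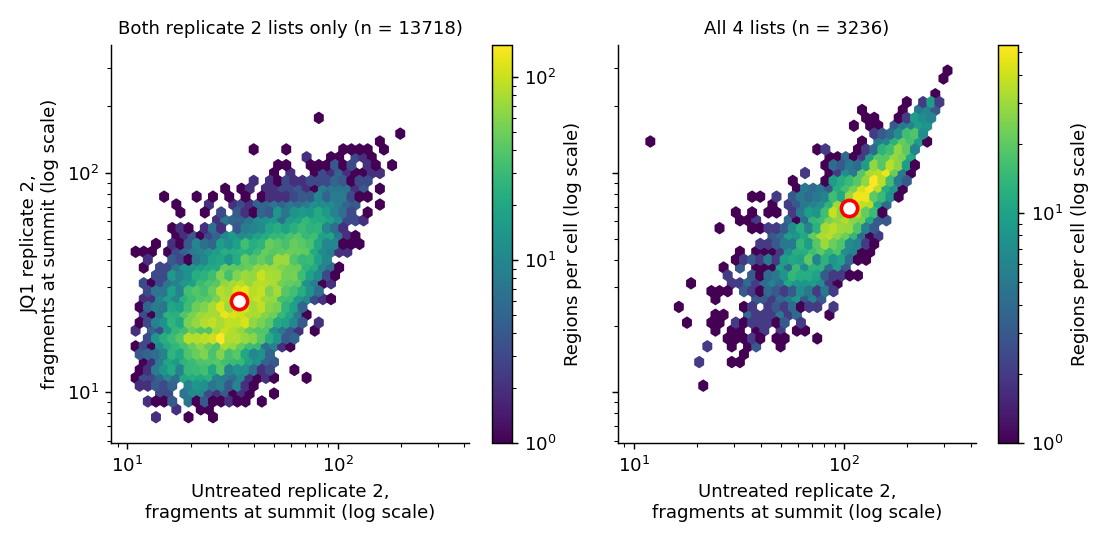
Fragments at the summit in untreated replicate 2 and JQ1 replicate 2, on log axes, for the replicate 2 regions (left) and for regions present in all 4 lists (right). Colour gives the number of regions per hexagon on a log scale and the ringed dot the medians. The replicate 2 regions centre on 34 and 26 fragments and the regions in all 4 lists on 106 and 69, and the clouds overlap.

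The share of these regions changed steeply with rank. Each of the 21173 regions in both replicate 2 lists was placed by the poorer of its ranks in the pair of lists. In the best 1%, 1 of 158 regions lacked a replicate 1 peak (0.633%). From 5 to 10% it was 95 of 1088 (8.73%), and from 20 to 30% it was 1033 of 2257 (45.8%). From 90 to 100% it was 1653 of 1786 (92.6%). Among the 4231 regions in the best 20% of both lists, 671 lacked a replicate 1 peak (15.9%, 14.8 to 17.0%).

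**Figure D3:**
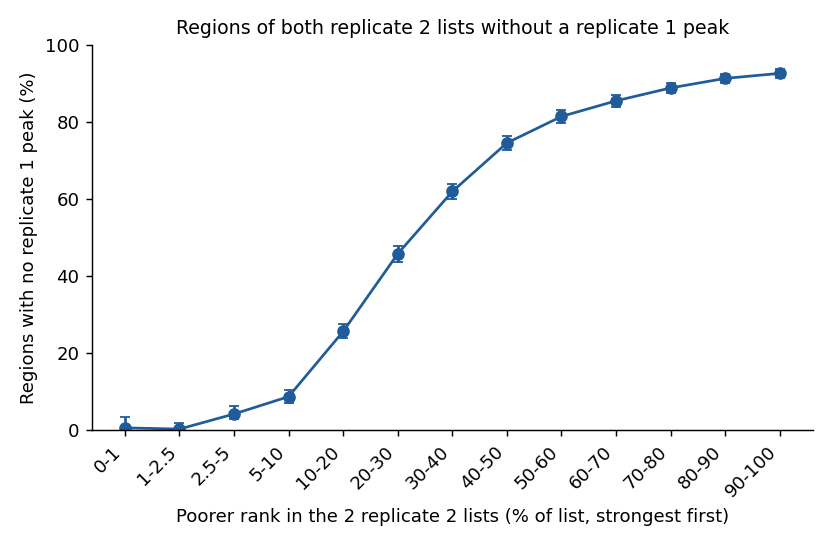
Share of regions in both replicate 2 lists that had no replicate 1 peak, in percent, by the poorer of the region's ranks in the replicate 2 lists, with 95% Wilson intervals. The share is 0.633% in the best 1% of ranks, 0.319% in the next class, and climbs from there to 92.6% in the last 10%.

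The lists differed in depth of signal. The replicate 1 lists held 6902 peaks untreated and 4974 with JQ1, and the replicate 2 lists 27373 and 32404. Both replicate 2 lists carry the same tag in their row names, which differs from the tags of the replicate 1 lists. In regions present in all 4 lists, the median ratio of summit fragments in replicate 1 to replicate 2 was 0.296 untreated (29 against 106) and 0.353 with JQ1 (23 against 69). The lowest summit that passed in the replicate 1 lists held 8 fragments untreated and 7 with JQ1. The labels state the same round number of reads for every sample, without a count per library. The part of this difference in the absence of these regions from replicate 1 was not tested, and a replicate effect and a batch of libraries cannot be told apart.

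At the threshold of presence, the 4 regions nearest outside the set had a replicate 1 summit of 8 fragments and a −log10 q-value of 1.31 or 1.33. They lay inside PARVA, 36.5 kb upstream of TANK, inside ADGRL3 and inside SYNPO2. Their −log10 q-values in the replicate 2 lists were 3.85 and 29.0 at PARVA, 33.2 and 19.4 at TANK, 35.8 and 21.4 at ADGRL3 and 36.5 and 15.4 at SYNPO2. The 4 weakest regions inside the set lay within CCDC171 (2.26 and 1.33, with 12 and 11 fragments), within GDPD4 (1.31 and 4.16), 202 kb from CTPS2 (6.69 and 1.33) and 518 kb from KCND2 (10.9 and 1.33). In 3 of these 4 the JQ1 list held the weaker value.

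The best 12 regions of the set had summits at or above the medians of the regions in all 4 lists, but not as high as the highest of those. The maxima were 193 and 173 fragments in the set and 304 and 288 in regions of all 4 lists. Of the best 12, 8 lay over 100 kb from the span of a protein-coding gene, as did 25.6% of the set and 24.1% of all regions. The best by poorer rank was chr12:86210729-86211152, inside MGAT4C, a member of a family of N-acetylglucosaminyltransferases. It had 160 fragments in untreated replicate 2 and 139 in JQ1 replicate 2, with −log10 q-values of 159 and 158, and the nearest replicate 1 peak was 655 kb away. The second, chr8:136789585-136790213, stood 1133 kb from KHDRBS3, which encodes an RNA-binding protein, with 170 and 125 fragments. Both summits were above 106 and 69, the medians of the regions in all 4 lists.

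The sixth was chr5:143440579-143441042, 5.38 kb upstream of NR3C1, which encodes the glucocorticoid receptor, a steroid-activated transcription factor. Its summit held 162 and 101 fragments, its −log10 q-values were 125 and 90.5 and its fold enrichment 28.0 and 17.7. The nearest replicate 1 peak was 78.9 kb away. NR3C1 had 4 of these regions within 50 kb of its span, and none of its regions was in all 4 lists.

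Among the other regions of the best 12, the summits held 130 and 131 fragments 446 kb upstream of CTNND2 (delta-catenin), 129 and 119 at 335 kb upstream of TRAM1L1, and 138 and 127 inside SKAP1, an adaptor of T cells. They held 113 and 102 at 157 kb from ATXN7L3B, and 112 and 108 at 34.6 kb downstream of CLCA4, of a family of chloride channel regulators. They held 139 and 89 at 696 kb upstream of NR2F2, which encodes the nuclear receptor COUP-TFII. These counts are not scaled, and the median ratio of JQ1 to untreated of 0.697 over all regions applies to each pair. The last of the 12 were 118 kb downstream of LOC124905977 (122 and 81 fragments), 391 kb from the growth factor gene FGF9 (161 and 69) and 828 kb upstream of FRG1 (130 and 98). Their nearest replicate 1 peak was between 11.5 kb (at ATXN7L3B) and 1074 kb (at TRAM1L1) away.

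The summits of the pair of lists fell close together. In 93.1% of the regions (92.7 to 93.5%) they were within 50 bp, with a median distance of 13 bp. The share was 97.5% (96.9 to 98.0%) for regions in all 4 lists, with a median of 7 bp. Within the same rank class the difference was small. In the best 20% of ranks 99.6% of these regions and 98.5% of the other regions in both replicate 2 lists had close summits. In the last 20% it was 83.0% and 84.9%. The classes are wide and match strength only in part: in the best 20% the median summits held 80 and 59 fragments for these regions and 110 and 73 for the others. The regions of the set were also narrower than those in all 4 lists, with a median width of 257 bp against 394 bp. Fewer held several peaks of a list, 3.23% against 10.3% untreated and 4.65% against 12.7% with JQ1. Over the 13718 regions Spearman's rho of the −log10 q-values of the pair of lists was 0.540, and over the 3236 regions in all 4 lists it was 0.792, given as a description since regions share their libraries.

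Position was compared with that of the other regions, and over all ranks the share inside gene spans was near theirs. The share far from genes was above that of regions in all 4 lists and near that of all regions. Of the 13718, 49.2% overlapped the span of a protein-coding gene (48.4 to 50%), against 49.4% of regions in all 4 lists (47.7 to 51.2%) and 49.9% of all regions. Only spans are given, since exons and introns were not used here. Within 1 kb of a gene start lay 186 regions (1.36%, 1.18 to 1.56%), against 1.42% of regions in all 4 lists (1.07 to 1.89%), so the set was mostly distal to promoters. Beyond 500 kb from any protein-coding gene lay 6.74% (6.33 to 7.17%), against 5.25% of regions in all 4 lists (4.54 to 6.08%). These intervals cover counting error only, and this share was not compared within rank classes. Over all regions the share was 6.30% (6.05 to 6.55%), an interval that overlaps that of the set. In the rank classes from 20 to 40% and from 40 to 60%, which match strength only in part, 47.6% and 50.5% of these regions were inside a gene span. Of the other regions in both replicate 2 lists it was 52.6% and 54.4%. In the best 20% of ranks the shares were 47.4% and 47.6%.

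Few of the regions were edges of a replicate 1 peak. The median distance to the nearest replicate 1 peak was 89.8 kb, and 336 regions (2.45%) had a replicate 1 peak within 1 kb. Another region of the set was nearer, at a median of 46.4 kb, with 2659 (19.4%) having one within 10 kb. A region present in all 4 lists lay within 10 kb of 828 (6.04%).

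The share of regions in both replicate 2 lists that lacked a replicate 1 peak varied over chromosomes. It was highest on chromosome 13, with 600 of 786 (76.3%, 73.2 to 79.2%), followed by chromosomes 16 (72.0%), X (71.8%) and 5 (71.2%). It was lowest on chromosome 19, with 94 of 179 (52.5%, 45.2 to 59.7%), followed by chromosome 21 (55.8%) and chromosome 17 (59.1%). Among regions in the best 20% of both lists the shares were 35 of 135 on chromosome 13 (25.9%) and 1 of 41 on chromosome 19 (2.44%). The median poorer rank of the regions in both lists was 52.9% on chromosome 13 and 43.8% on chromosome 19, and its part in these shares was not tested.

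Among the genes with the most regions of the set within 50 kb, those named here were all over 1000 kb long. CCSER1 had 26, PDE4D (a cAMP phosphodiesterase) 25, DLG2 (a scaffold of synapses) 21 and EYS (a protein of photoreceptors) 19. Their spans run from 1478 kb for CCSER1 to 2173 kb for DLG2, and per 100 kb, the window included, they held between 0.910 (EYS) and 1.65 (CCSER1) regions.

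Values under JQ1 were set beside untreated values in the pair of replicate 2 lists. The ratio of deposited fold enrichments, JQ1 over untreated, had a median of 0.950 over the regions (−0.07 on the log2 scale), and from the 5th to the 95th percentile it ran from 0.458 to 2.04. It was 1.5 or higher in 2146 regions (15.6%), beside 15.5% of all regions in both lists, and 1/1.5 or lower in 2931 (21.4%), beside 23.2%. Over all ranks both shares are near those over all regions in both lists, which include the set itself, and are no result about this set. In each rank class, which matches strength only in part, both were below those of the other regions in both lists. From 40 to 60% the shares were 13.4% against 21.3% higher and 20.1% against 28.5% lower. The part of strength in this was not tested. For regions in all 4 lists the shares over all ranks were 13.6% and 27.4%, with a median ratio of 0.894. These ratios compare 1 library with 1 library, each against its own background, and have no replicate.

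The larger share was on the other side when fragments were used, but the measures were centred differently. The fold ratio was left as deposited, with a median of 0.932 over all regions in both lists. When summit fragments were compared instead, scaled so that the median ratio over all regions in both lists was 1, JQ1 was higher by 1.5 times or more in 2561 of the regions (18.7%, beside 15% of all) and lower in 1194 (8.70%, beside 9.88%). In the other regions of both replicate 2 lists it was higher in 623 (8.36%) and lower in 897 (12%). Local background is part of the fold by construction, and it moved with the fold ratio. The medians that follow are unscaled counts. Over all regions in both lists the median ratio of JQ1 to untreated was 0.697 for summit fragments and 0.834 for background. In the 2146 regions with higher JQ1 fold, the median background was 5.01 fragments untreated and 2.17 with JQ1. Their median summit held 33 fragments in both lists, which once scaled is a higher summit with JQ1. Of the 2146, 967 (45.1%) were also higher by 1.5 times or more in scaled fragments. In the 2931 with lower JQ1 fold the background was 2.66 and 3.70, the summit 41 and 23, and 651 (22.2%) were also lower by fragments. The part of the background in these ratios was not tested.

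**Figure D4:**
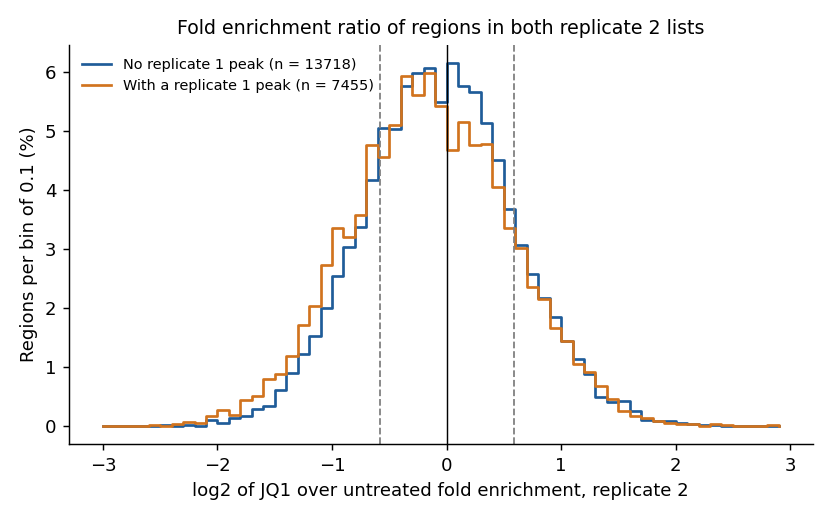
Share of regions per bin, in percent, by the log2 ratio of fold enrichment, JQ1 over untreated replicate 2, for the 13718 regions without a replicate 1 peak and the other 7455 regions of both replicate 2 lists. Dashed lines mark 1.5 times higher and lower. Both centre just below 0, at medians of 0.950 and 0.902 as linear ratios, and overlap over most of their range.

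In 4 of the 5 highest fold ratios the untreated background was above the JQ1 background by more than 3 times in unscaled fragments. In the one near NR2F1 both were at the lowest of their list (1.96 and 1.56). The highest was inside TSPAN8, a tetraspanin, with a fold of 2.44 and 12.5, a ratio of 5.10, 27 and 46 fragments and a background of 10.2 and 2.77. Its nearest replicate 1 peak was 0.335 kb away. Inside ZYG11A the fold was 2.71 and 13.8 while fragments were 42 and 39, with a background of 14.6 and 1.90. For the regions near DAPL1 (4.16 and 20.3), NR2F1 (3.65 and 17.6, at 1021 kb) and inside ZFPM2, which encodes a cofactor of GATA proteins (3.47 and 16.4), fragments were 41 and 51, 11 and 44, and 44 and 67. The summit upstream of NR2F1 thus differed most in fragments among these 5.

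The lowest ratio, 0.157, was 77.5 kb upstream of TRIM2, a ubiquitin ligase, with a fold of 26.0 and 4.08, 94 and 37 fragments and a background of 2.21 and 8.31. Other low ratios were near NCAM2 (21.4 and 3.85, 77 and 42 fragments), NAA11 (29.4 and 5.36, 113 and 44) and DTWD2 (13.0 and 2.68, 43 and 19). In each of these the fragments were fewer and the background was higher in the JQ1 list.

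Genes were assigned a region when it lay within 50 kb of their span, so a region can count for a gene that is not its nearest. Of 20037 protein-coding genes 7664 (38.2%) had a region of the set, 4276 (21.3%) had one and no replicate 1 peak, and 2724 (13.6%) had a region in all 4 lists. The best region of each of the 7664 genes had a median poorer rank of 52.1%. Long genes and gene-dense stretches differ in their chance of a region, and the lists that follow were not adjusted for span.

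Of 31 androgen response genes 23 had a region (74.2%, beside 38.2% of all genes), 1 of them with no replicate 1 peak (3.23%, beside 21.3%). A region in all 4 lists was found at 17 of the 31 (54.8%, beside 13.6% of all genes), so a share above that of all genes was not particular to the set. The median best rank of the set at these genes was 47.3%. ELL2, an elongation factor induced by androgen, had 4, the best at chr5:95878591-95878858, 6.39 kb from its span, with 123 and 92 fragments and −log10 q-values of 54.3 and 62.4. HERC3, a ubiquitin ligase, had one inside its span (73 and 54 fragments), as had STEAP2, a metalloreductase of the prostate membrane (66 and 50 fragments, with −log10 q-values of 41.1 and 38.9). The gene without a replicate 1 peak was SLC45A3, which encodes prostein, with 4 regions, the best at 40 and 30 fragments and −log10 q-values of 11.2 and 18.3. That region lay 30.8 kb upstream of SLC45A3 and 1.56 kb from NUCKS1. The nearest gene of each of the 4 was NUCKS1 or ELK4 and not SLC45A3.

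Of 28 transcription factors of prostate cells, 21 had a region (75%, beside 38.2% of all genes), 5 of them with no replicate 1 peak (17.9%, beside 21.3%). A region in all 4 lists was found at 10 of the 28 (35.7%, beside 13.6% of all genes), so here too the higher share was not particular to the set. The median best rank of the set at these genes was 48.6%. After NR3C1, described above, the best were FOXA2, a forkhead factor (55 and 34 fragments, 2.27 kb from its span, at the promoter of LINC00261), and PGR, the progesterone receptor (45 and 34, inside). FOXA1, the pioneer factor, had 2, the better with 30 and 20 fragments, 46.2 kb upstream and inside TTC6, and the other inside MIPOL1. HOXB13, the homeodomain factor of prostate, had 1, with 34 and 28, 30.8 kb away and 2.7 kb from TTLL6.

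Among 11 GATA factors and cofactors, GATA3 and ZFPM2 had a region (18.2%, below the 38.2% of all genes). Only GATA3 had one without any replicate 1 peak within 50 kb (9.09% of the list, beside 21.3% of all genes). GATA3 encodes a paralog of GATA2 that marks luminal epithelium. Its better region, chr10:8037895-8038085, lay 7.34 kb upstream with 32 and 24 fragments and −log10 q-values of 15.6 and 17.8. Its other one, 32.1 kb away and inside TAF3, had 32 and 11 fragments. At ZFPM2 the best by rank was 18.8 kb from the span with 46 and 25 fragments. GATA2 itself had no region of the set within 50 kb.

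Steroid enzymes had a region at 13 of 31 genes (41.9%), 7 with no replicate 1 peak (22.6%), shares near the 38.2% and 21.3% of all genes and no result about this list. The best was inside SRD5A1, a 5-alpha-reductase that makes dihydrotestosterone, with 78 and 47 fragments. HSD17B11, a 17-beta-hydroxysteroid dehydrogenase, had its best 36.5 kb downstream with 70 and 42. UGT2B17, which like UGT2B15 glucuronidates androgens, had a region 38.0 kb away with 51 and 46, and the region whose sequence is printed above, 0.061 kb upstream of UGT2B15, held 17 and 13. Neither gene had a replicate 1 peak within 50 kb. Both belong to a family of near-identical copies, where reads can be misplaced.

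Luminal, basal and neuroendocrine markers were read against the same 38.2% of all genes with a region and 21.3% with no replicate 1 peak. Of 20 luminal markers 11 had a region (55%, 6 or 30% with no replicate 1 peak), led by STEAP2, STEAP1 (54 and 59 fragments, a region shared with STEAP2) and ACP3, prostatic acid phosphatase (72 and 53). Of 18 basal markers 12 had one (66.7%, 5 or 27.8% with no replicate 1 peak), led by EGFR, the epidermal growth factor receptor (73 and 43), DST, a linker of hemidesmosomes (44 and 41), and TP63, a p53 family factor of basal cells (67 and 25). Of 19 neuroendocrine markers 9 had one (47.4%, 7 or 36.8% with no replicate 1 peak), among them SYT1 (61 and 37) and MYCN (39 and 25). Median best ranks in these lists were 66.7%, 54.4% and 43.7%.

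Lists of other cells were nearer to or below the 38.2% of all genes with a region. In the share with no replicate 1 peak, stromal and immune markers equalled the basal markers (27.8%), beside 21.3% of all genes. Of 24 GATA2 targets known from blood or endothelial cells 6 had a region (25%, 3 or 12.5% with no replicate 1 peak), led by RUNX1 (77 and 68 fragments), PROX1 (91 and 74) and HHEX (42 and 46). Of 18 stromal and immune markers 7 had one (38.9%, 5 or 27.8% with no replicate 1 peak), led by LYZ (49 and 34), PTPRC (52 and 30) and DCN (47 and 33). Of 18 housekeeping genes 5 had one (27.8%, 3 or 16.7% with no replicate 1 peak), led by YWHAZ (58 and 32), EEF1A1 (21 and 32) and TFRC (26 and 25). Their median best rank, 83.6%, was the poorest.

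Genes tied to BET proteins did not stand above the background share. Of 20 BET proteins and coactivators 7 had a region (35%, 1 with no replicate 1 peak), led by KMT2A (61 and 38 fragments), NCOA2 (76 and 34) and MLLT3, with 8 regions (52 and 26 in the best). Of 16 genes known to be lowered by BET inhibitors 6 had one (37.5%), led by AURKA, a mitotic kinase (87 and 50, inside its span), CDK6 (43 and 47) and E2F1 (61 and 24). Of 10 genes known to be raised by them 2 had one, CLU (38 and 25) and TXNIP (34 and 19).

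A panel of 28 genes of the androgen and GATA axis, chosen with earlier results of these data known, was read next. Of these 28 genes 20 had a region of the set, 37 distinct regions in all, beside 38.2% of all protein-coding genes. A region and no replicate 1 peak within 50 kb were found at 5 of the 28 (GATA3, SLC45A3, UGT2B17, UGT2B15 and SOX9), beside 21.3% of all genes. No region of the set was found at 8: GATA2, FKBP5, UGT2B28, CCND1, UBE2C, HEXIM1, TRPS1 and KLF5. The panel was chosen by hand, so these counts carry no test. KLK3, which encodes prostate-specific antigen, and KLK2, its neighbour, shared a region 9.19 kb upstream of KLK3, chr19:50845584-50845893, with 29 and 36 fragments and −log10 q-values of 9.64 and 23.4, beside 3 regions in all 4 lists. STEAP4, a metalloreductase, had the lowest ratio of fold enrichment among the best regions of the panel genes (0.375), with 103 and 43 fragments and −log10 q-values of 65.3 and 20.7. TMPRSS2, a serine protease whose promoter drives the fusion with ERG in VCaP, had 2 regions, the better with 67 and 53 fragments and a replicate 1 peak 0.739 kb away.

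At ERG, a member of the ETS family, 2 regions lay inside the span, with 39 and 42 fragments in the better. GRHL2, an epithelial factor, had 4 inside its span, the best with 58 and 55. At the remaining genes summits were lower than at ELL2: PMEPA1, an inhibitor of TGF-beta signalling, had 44 and 33, MYC had 44 and 24 at 33.9 kb, NCOA3, a receptor coactivator, 27 and 27, and SOX9 12 and 15. SOX9 was close to the limit of calling in untreated replicate 2, where its −log10 q-value was 1.71.

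**Figure D5:**
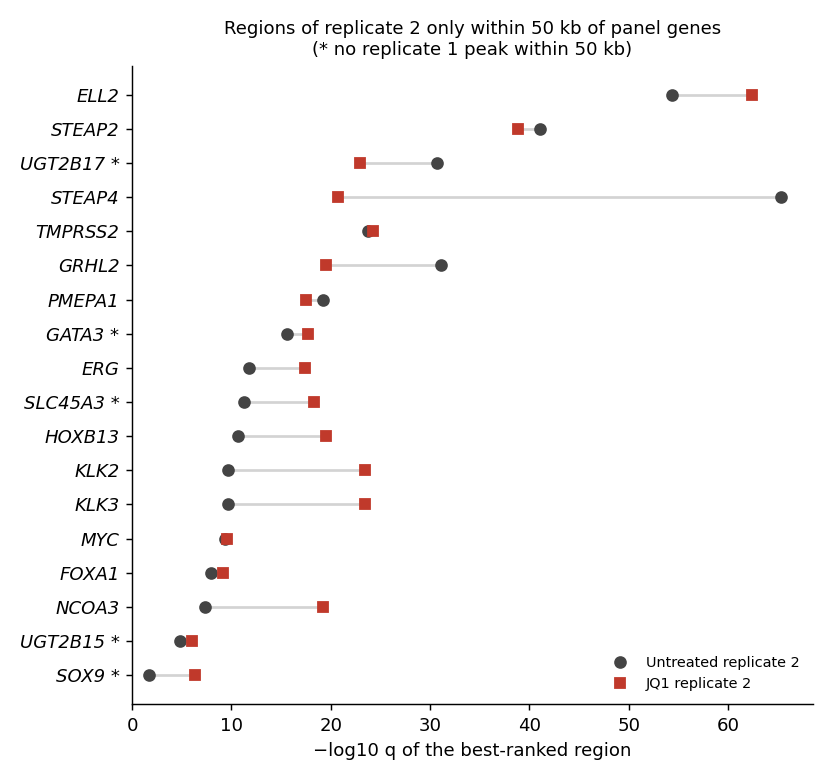
The −log10 q-value of the best-ranked replicate 2 region within 50 kb of 18 of the panel genes, in untreated replicate 2 and JQ1 replicate 2, with an asterisk at genes without a replicate 1 peak within 50 kb. ELL2, with 54.3 and 62.4, is high in both lists, STEAP4, with 65.3 and 20.7, is lower in the JQ1 list, and SOX9, with 1.71 and 6.34, is low in both.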

How the data were processed

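GATA2 ChIP-seq peak lists of 4 VCaP precipitates were analysed. The tools named per the submitters' processing notes are Bowtie2, Picard and MACS2, on hg38, with no version given. Each list belongs to 1 precipitate per the labels, so peaks were called sample by sample. Each deposited line holds the authors' whole-number score (not used), a fold enrichment as a linear ratio at the summit, and −log10 p-values and q-values, the lowest −log10 q-value of a list being 1.31 to 1.33. Per the labels, the stated reads are the same round number for all samples, so the true depth of each library is unknown.

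The deposited fold and −log10 p-value were solved for a whole number of fragments at the summit and a local background (pseudocount 1, tolerance 0.002 in −log10 p). This succeeded for 100% of peaks in 3 lists and 32403 of 32404 in JQ1 replicate 2. Values of untreated replicate 2 had been scaled by 0.6863. The step was tested on simulated data. Regions, ranks by −log10 q-value, distances to 20037 RefSeq protein-coding spans (GRCh38.p14, the same build) and motif counts were computed with Python 3.11.15, numpy 2.4.6, pandas 2.3.3 and scipy 1.17.1. The start was known for 15842 genes, and both span ends were used for the other 4195, chromosome 8 included. Intervals for shares are 95% Wilson intervals and cover counting error only, since fragments carry no molecular identifiers and neighbouring regions are not independent. No test between groups was made, because each treatment had 1 list with these peaks.

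The members and gene lists were chosen with earlier results of these data known. All 266 gene list entries matched a symbol. Regions named in the text were the 12 best, 4 weakest and 4 just outside the rule, the 5 highest and 5 lowest fold ratios, the 5 genes with most regions, the panel genes, up to 3 genes per list and the 8 best promoter sequences outside chromosome 8. SLC45A3 in the androgen list, TRPM8 and UGT2B15 were named after their values were seen. Alternatives changed the overlap, the q-value limit, list length, windows, the ratio and each replicate. Some of the genes these rules select are not reported here.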

Additional observations from a re-analysis of the deposited data

Results flagged for a closer look

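The list of JQ1 replicate 1 held 10 peak lines on the mitochondrial genome and that of untreated replicate 2 held 8 on unplaced contigs. These lines lie outside chromosomes 1 to 22, X and Y and entered no region described above.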

How the results depend on the processing

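The size of the set depended most on list length. With every list limited to its best 4974 peaks, 597 regions were in both replicate 2 lists alone, 289 genes were reached only by replicate 2, 46.7% of the regions were inside a gene span, 0.838% were within 1 kb of a gene start, 49 had a higher and 117 a lower JQ1 fold, and 99.2% had close summits. Leaving out 1 list at a time gave between 15048 and 23185 regions, the highest without untreated replicate 2, where peaks in JQ1 replicate 2 alone sufficed. It gave between 4900 and 6235 genes, 48.8% to 50.2% inside a gene span, 1.35% to 1.49% near a gene start, 93.2% to 93.8% with close summits, 2459 to 2520 regions with higher and 3165 to 3794 with lower JQ1 fold. A limit of 2 instead of 1.5 gave 745 higher and 1017 lower, and scaled summit fragments gave 1194 lower. A reciprocal overlap of 50% gave 94.3% with close summits and a q-value limit of 1e-05 gave 95.9%. A summit distance of 100 bp gave 97.5%. With 10 kb around genes 2756 genes were reached only by replicate 2, and with 3 kb around gene starts 4.34% of regions were near one. In all, 39 alternative values were within the tolerance and 18 were not, where a count was allowed to differ by up to 1.5 times and a share to lie within the 95% interval of the main one. The stricter q-value and the other overlap rules gave 12428 to 13911 regions. The causes were not tested beyond what fewer peaks or wider windows bring by construction. No paired analysis was possible because the regions have a peak in 1 list per treatment, so each treatment has a single value. The lowest summits of the set held 11 and 8 fragments, where relative counting error is widest.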
